A study of Mus musculus with 21 samples.

Results

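A group of 6 secreted or cell-surface guidance cues was followed along the mouse presomitic mesoderm: the netrin gene Ntn1, the slit genes Slit1 and Slit3, the semaphorin genes Sema3c and Sema4d, and the chemokine gene Cxcl12. They are 6 of the 18193 genes with a probe set of their own on the array. They were chosen by their signals over the parts of the tissue, so their levels and slopes are given as a description and without a test. Presomitic mesoderm (PSM) names the still unsegmented tissue flanking the neural tube at the tail end, which buds off somites one after another. It came from CD-1 embryos, an outbred strain, with no genetic change or experimental treatment given in the labels, labelled as stage E8.5, while the dissection protocol gives 9.0 days after mating. After 1 min in pancreatin (2 mg/ml) the PSM was freed of surrounding tissue and divided into 7 pieces, parts 1 to 7, each with 3 Affymetrix arrays, 21 in all. The labels do not say which end of the tissue part 1 is.

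Netrins are secreted proteins related to laminins. They are bound by Dcc and neogenin, which mostly mediate attraction, and by the Unc5 receptors, which mediate repulsion. Slits are large secreted proteins that repel cells and axons through Robo receptors, and both families are best known from the floor plate of the neural tube. Class 3 semaphorins such as Sema3c are secreted and bind neuropilins that signal with plexins, whereas Sema4d is held in the membrane and binds plexin B1. Cxcl12 attracts migrating cells, muscle precursors and germ cells among them, through Cxcr4, and is also taken up by the scavenger receptor Ackr3.

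Signals are MAS5 signal intensities, one value per probe set and array, whose mean over an array lay between 150.97 and 153.85. The median of all values, 13.3, served as the lower limit for a usable signal. Presomitic mesoderm markers went down and somite markers up with part number: 7 of 8 of the former fell and 0 rose, and all 8 tested of 11 somite markers rose. Arrays of replicate number 3 stood apart from the others. In 245 of 12141 genes all 7 of them lay above the other 14 arrays, and in 239 genes all 7 lay below. For number 1 these counts were 2 and 0, and for number 2 they were 3 and 2. According to the design text, the left and right sides of 1 embryo were both used and a further embryo gave another set, without a link to replicate numbers. Some arrays thus share an embryo, and p-values here measure the spread between arrays, not between embryos. In such bulk pieces, fewer cells of a type and less RNA per cell cannot be told apart.

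RefSeq sequences before the transcription start (GRCm38.p6) were found for 4 of the 6 genes, and 3 are shown to set the letters of 2 cues that were higher in late parts, Cxcl12 and Sema3c, beside those of Slit3, which was lower there. Each line gives the 250 bases before the start, 5′ to 3′. Capitals mark matches, on either strand, to the motif letters AGGTGT (T-box core), CTTTGA (TCF/LEF), AGGTCA (nuclear receptor core), TGGGAA (RBPJ) and CANNTG (E-box).
Cxcl12 (chr6:117168285-117168534, + strand): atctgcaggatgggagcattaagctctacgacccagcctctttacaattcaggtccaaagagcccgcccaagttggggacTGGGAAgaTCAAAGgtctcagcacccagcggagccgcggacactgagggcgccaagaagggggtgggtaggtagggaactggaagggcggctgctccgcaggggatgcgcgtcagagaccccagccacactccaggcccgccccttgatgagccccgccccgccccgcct
Sema3c (chr5:17574566-17574815, + strand): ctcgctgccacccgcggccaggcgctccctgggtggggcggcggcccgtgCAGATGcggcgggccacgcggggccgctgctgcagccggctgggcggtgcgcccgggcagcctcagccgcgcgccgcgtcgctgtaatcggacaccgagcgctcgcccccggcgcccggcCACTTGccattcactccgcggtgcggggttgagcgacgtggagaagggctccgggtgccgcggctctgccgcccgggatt
Slit3 (chr11:35121206-35121455, + strand): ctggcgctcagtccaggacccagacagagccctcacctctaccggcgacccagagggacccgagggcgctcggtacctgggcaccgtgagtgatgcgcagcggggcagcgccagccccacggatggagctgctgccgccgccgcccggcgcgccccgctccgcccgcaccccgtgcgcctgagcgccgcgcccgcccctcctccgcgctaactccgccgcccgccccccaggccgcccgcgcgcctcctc

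The Cxcl12 window held 1 RBPJ and 1 TCF/LEF match, close together and not overlapping. Of the 32851 windows of this length in the table, 21.6% held the first motif and 13.8% the second. Sema3c held 2 E-boxes, a motif present in 66.2% of windows, and Slit3 held no match to any of the 5. No T-box core, found in 11.8% of windows, was in the windows of these genes or of the 3 starts listed for Sema4d. Among those 3 starts there were 2 E-boxes, 1 RBPJ match and 1 nuclear receptor core (14% of windows). The Slit3 and Sema3c windows were rich in G and C, at 78.8% and 78.4% against a median of 52.4%, and Cxcl12 had 64.4%. A match describes letters only.

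Cxcl12 went up over most of the tissue. Its signals in replicate numbers 1, 2 and 3 were 27.0, 4.33 and 21.7 in part 1, 111, 59.5 and 91.4 in part 2, and 276, 233 and 229 in part 3. They were 667, 473 and 621 in part 4, 704, 729.8 and 1094 in part 5, 1003, 1233 and 1339 in part 6, and 807, 1258 and 1135 in part 7. The arrays of parts 1 to 5 did not overlap from part to part, whereas parts 5, 6 and 7 did. On the log2(signal + 16) scale the mean went from 5.00 ± 0.58 in part 1 to 10.23 ± 0.21 in part 6 and 10.06 ± 0.33 in part 7 (SD, n = 3), and part 7 lay 5.05 ± 0.26 (SE) above part 1, a 33.2-fold difference on this scale, with 1 of the 3 part 1 arrays below 13.3. The early steps were the large ones. From part 1 to 2 the gain was 1.65, from 2 to 3 it was 1.37 and from 3 to 4 it was 1.19 (each ± 0.26, SE), whereas the later steps were 0.49, 0.51 and -0.17. The midpoint between the part 1 and part 7 means was reached between parts 2 and 3, at 2.64 on the part scale.

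Ntn1 gave a similar profile, with a midpoint at 2.95 that depends on the 16 added and was not tested against that of Cxcl12. In the 3 arrays its signal was 10.4, 0.815 and 12.3 in part 1, 19.97, 19.4 and 29.8 in part 2, 146, 41.9 and 145 in part 3, and 233, 143 and 298 in part 4. Parts 5, 6 and 7 gave 673, 313 and 539, then 769.6, 432 and 719, then 462, 491 and 542. The arrays of parts 1, 2 and 3 did not overlap, those of parts 3 and 4 did, those of parts 4 and 5 did not, and those of parts 5 to 7 did. The mean went on the log2 scale from 4.54 ± 0.41 in part 1 to 9.32 ± 0.44 in part 6 and stood at 9.00 ± 0.11 in part 7 (SD, n = 3), a difference between the end parts of 4.47 ± 0.36 (SE). All 3 arrays of part 1 were under 13.3, so the size of this difference depends on the 16 added to each signal and no fold is given. Its widest step, 1.57 ± 0.36, was from part 2 to 3. Replicate number 2 was the lowest array in 6 of the 7 parts and on average 0.47 log2 units below the part mean, yet the slopes of the 3 replicate numbers were alike, 0.84, 0.88 and 0.81 per part.

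**Figure D1:**
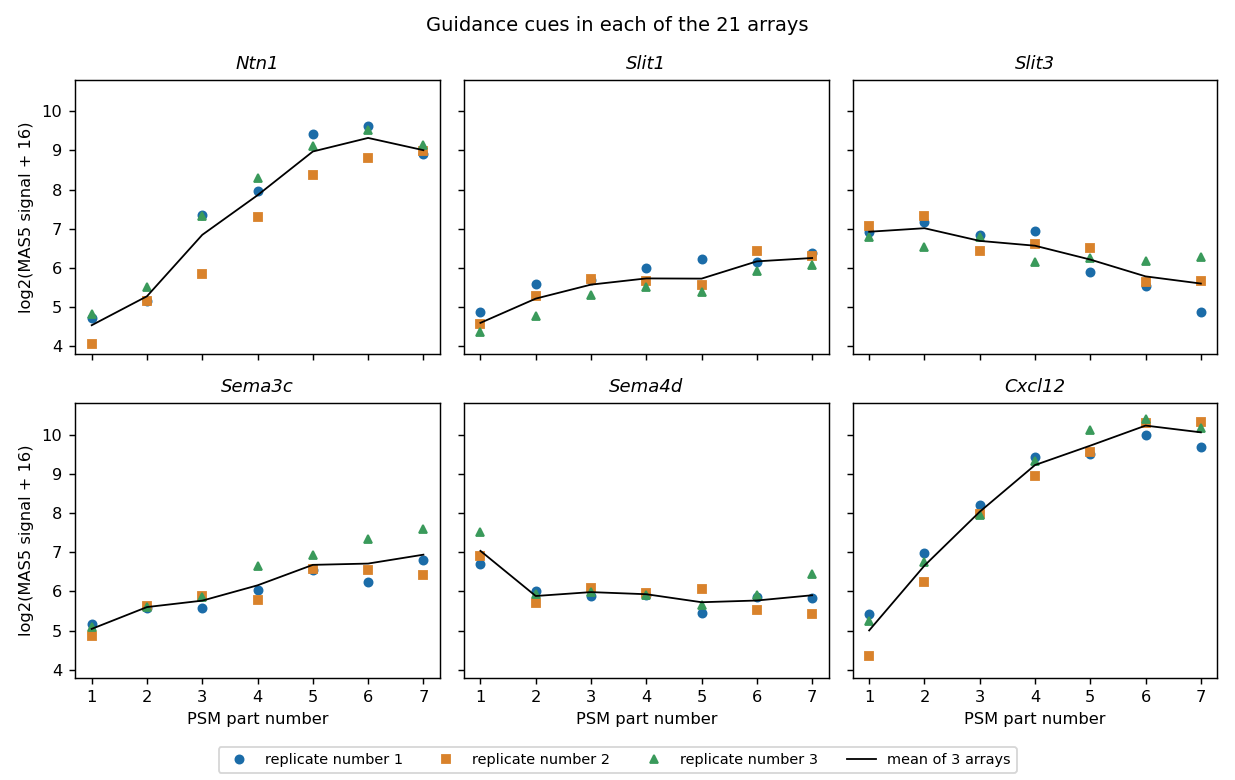
Log2(MAS5 signal + 16) of the 6 guidance cues per array (vertical axis) over PSM parts 1 to 7 (horizontal axis). Symbols tell the 3 replicate numbers apart and lines join the part means. Cxcl12 and Ntn1 climb from means of 5.00 and 4.54 in part 1 to their highest means in part 6, Slit1 and Sema3c climb less, Slit3 declines in late parts, and Sema4d is high in part 1 alone.

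Sema3c was lowest in part 1 and highest in part 7. The 3 arrays of part 1 had signals of 19.99, 13.2 and 18.0, all below every other array, of which the lowest was 31.4. Part 2 followed with 31.4, 33.2 and 32.8, part 3 with 31.6, 42.5 and 41.6, part 4 with 49.4, 38.9 and 84.4, part 5 with 76.6, 78.3 and 106, part 6 with 59.9, 77.6 and 145, and part 7 with 94.5, 69.8 and 177. From part 2 on each part overlapped with the next. Replicate number 3 was the highest in each of parts 4 to 7, and the slope was 0.43 in it against 0.26 in each of the other numbers. The log2 means of parts 1 and 7 were 5.04 ± 0.15 and 6.94 ± 0.60 (SD, n = 3), 3.71-fold apart (1.89 ± 0.28, SE), with a midpoint at 3.58. Without replicate number 3 the slope was 0.26 per part, against 0.31 with it.

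Slit1 was the other cue that was higher in late parts. Its signals ran from 13.1, 7.62 and 4.66 in part 1 to 67.4, 63.5 and 50.9 in part 7, by way of 32.2, 22.8 and 11.5 in part 2, 35.8, 36.5 and 23.7 in part 3, 48.4, 34.7 and 30.0 in part 4, 58.3, 31.5 and 26.1 in part 5, and 54.8, 70.95 and 44.3 in part 6. The replicate number 3 array was the lowest in all 7 parts. All 3 arrays of part 1 were under 13.3, and each part overlapped with the next in the order of levels, although parts 1 and 7 lay far apart. The log2 means were 4.60 ± 0.25 and 6.25 ± 0.17 (SD, n = 3), a difference of 1.65 ± 0.24 (SE), again set in part by the 16 added. The widest step was the first, 0.62 ± 0.24.

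Slit3, the second slit gene, went the other way. Part 1 had signals of 105, 118 and 94.4, part 2 of 128, 144 and 77.3, part 3 of 99.5, 70.5 and 94.0, and part 4 of 107, 81.2 and 55.0. Lower values followed in part 5 (43.0, 75.4 and 59.7), part 6 (30.4, 33.6 and 56.6) and part 7 (13.2, 34.8 and 61.0). Parts 1 and 2 were alike and every later step was a decline, and each part overlapped with the next. Part 7 was 1.32 ± 0.30 (SE) log2 units below part 1, with means of 5.60 ± 0.70 and 6.92 ± 0.14 (SD, n = 3). The 3 replicate numbers differed in steepness, with slopes of -0.37, -0.27 and -0.10 per part, and the slope was -0.32 without number 3 against -0.25 with it.

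Sema4d differed from the other 5 genes in having its whole change at the first step. The part 1 arrays had signals of 87.4, 104 and 165, and the highest of the other 18 arrays was 71.7. Part 2 had 48.9, 35.9 and 44.9, part 3 42.5, 52.4 and 46.9, part 4 44.5, 46.4 and 43.7, part 5 27.8, 50.5 and 34.5, part 6 42.3, 29.7 and 44.5, and part 7 40.5, 27.0 and 71.7. Parts 2 to 7 overlapped throughout. The step from part 1 to part 2 was -1.15 ± 0.23 (SE) log2 units, 2.22-fold, and the widest later step was -0.20 ± 0.23, from part 4 to 5. A straight line therefore describes this gene poorly, and its slope was -0.14 ± 0.04 (SE) per part.

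**Figure D2:**
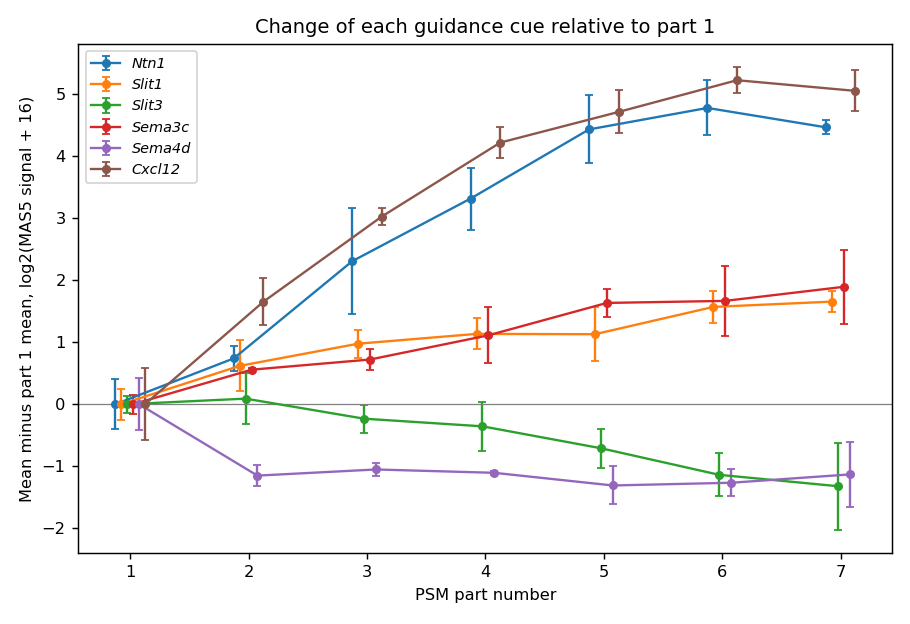
Mean of 3 arrays minus the part 1 mean, in log2(MAS5 signal + 16), for the 6 guidance cues against part number, with bars for the SD over the 3 arrays. Cxcl12 and Ntn1 have their highest means in part 6 and end 5.05 and 4.47 units above part 1, Slit1 and Sema3c end below 2 units, Slit3 declines from part 2 on, and Sema4d drops by 1.15 at the first step and then stays level.

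Other probe sets of the same genes were read where the array had them. A second Cxcl12 probe set went from 32.6, 12.7 and 19.4 in part 1 to 402, 544 and 510 in part 6, with a slope of 0.62 per part against 0.86 for the one used. The third never exceeded 17.8 and had a slope of 0.06. Both Slit1 probe sets were higher in late parts, with slopes of 0.25 and 0.27. The second Sema3c probe set had a slope of 0.15 against 0.31. The second Ntn1 probe set stayed between 0.654 and 10.4 in all 21 arrays, below 13.3, with a slope of 0.02. The 2 other Sema4d probe sets stayed under 8.23 with slopes of 0.0021 and 0.012. The high part 1 level of Sema4d and the profile of Ntn1 thus each rest on 1 probe set, as the profile of Slit3 does on its only one.

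**Figure D3:**
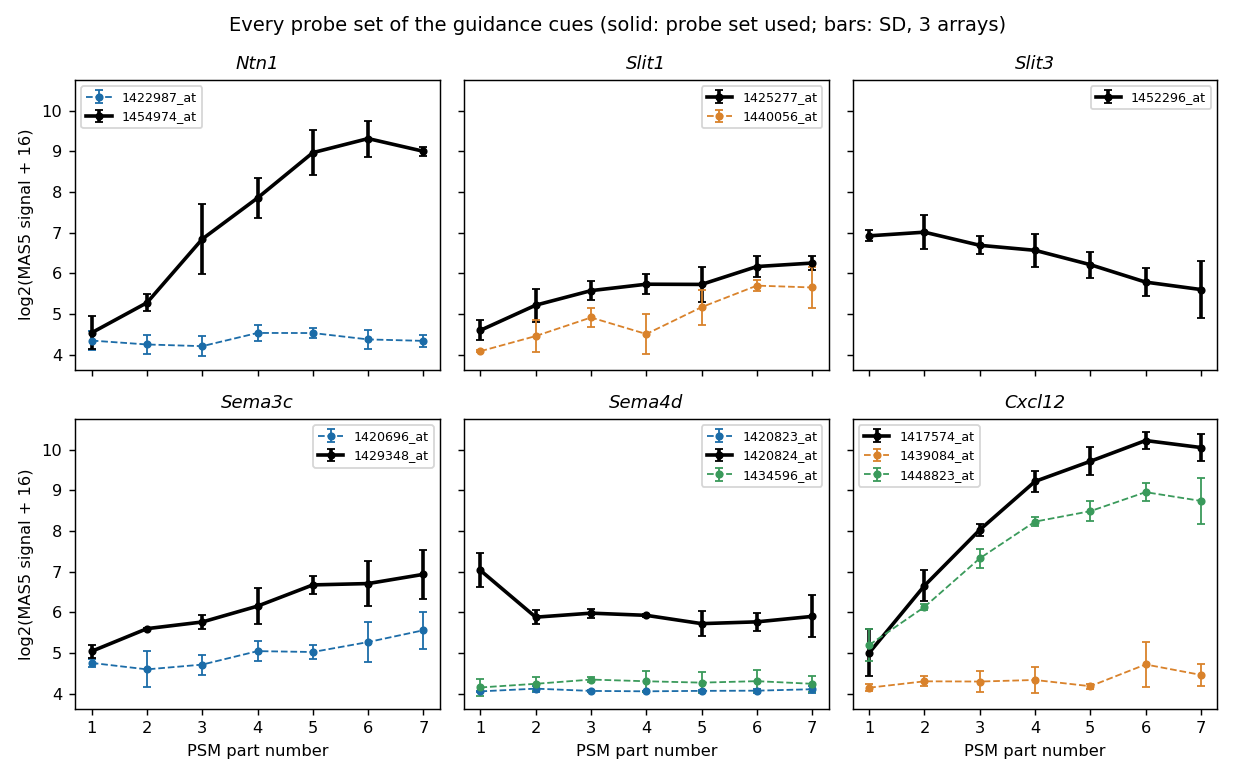
Part means with the SD over 3 arrays, in log2(MAS5 signal + 16), of every probe set with 1 of the 6 gene symbols, the probe set used drawn solid and black. The second Cxcl12 probe set follows the first, and the second Slit1 probe set also climbs but dips in part 4. The second Sema3c probe set climbs less, and 1 probe set of Ntn1, 1 of Cxcl12 and 2 of Sema4d stay near the bottom of the scale.

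The profiles were set beside those of 1335 other genes whose part means spanned at least 1 log2 unit, by Pearson's r over the 7 part means, which share arrays. Ntn1 was most like Met, the hepatocyte growth factor receptor gene (r = 0.997), Aldh1a2, which encodes the retinoic acid-making enzyme of paraxial mesoderm (0.995), and the forkhead gene Foxp1 (0.995). Cxcl12 was most like Map3k6 (0.999), the adhesion gene Cadm1 (0.997) and again Aldh1a2 (0.995). The value r compares shape and not size. Map3k6 went from a log2 mean of 4.68 in part 1 to 5.65 in part 7, Cxcl12 from 5.00 to 10.06. The nearest genes were Fbn2, Plpp3 and Gmds for Slit1 (0.987 to 0.989) and Megf9, Cd24a and Pcsk5 for Sema3c (0.989 to 0.995). Slit3 was nearest to Ceacam1, Gm38462 and Rftn1 (0.994 to 0.998), and Sema4d to Amotl2, Grik3 and Spint2 (0.980 to 0.984). All these genes are the highest of 1335 by r over 7 means, so a high r was to be found by this choice. For the same reason the 3 genes nearest to Sema4d were also high in part 1, Amotl2 with a log2 mean of 8.48 there and 7.09 in part 7. Among the 6 cues Ntn1 and Cxcl12 had the highest r, 0.986.

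Receptors of these cues were next read from a list of 24 genes, of which 22 passed the limit for a usable signal. Unc5b, Unc5c, Unc5d, Cxcr4, Robo4 and Plxna2 fell with part number, while Nrp1 rose. In limma's test of the slope, with adjusted p over all 12141 genes, 1 receptor rose and 6 fell, 31.8% of those tested. Of all genes 19.2% had a called slope, 8.12% rising and 11.1% falling. The median slope of the 22 was -0.03 per part against 0.00 for all genes. Without replicate number 3, 2 rose and 4 fell, and without number 1 or the replicate 1 array of part 1 only 4 receptors were called. Over all genes the called slopes went from 2330 to 1375 without number 1.

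Of the netrin receptors, Unc5b had signals of 232, 410 and 339 in part 1, 78.1, 142 and 196 in part 4, and 65.1, 68.6 and 90.1 in part 7. The end parts did not overlap, and the lowest array, 38.6, was in part 6. Its slope was -0.39 ± 0.04 (SE) per part (limma, adjusted p = 1.63e-07), and part 7 was 3.72-fold below part 1 (adjusted p = 2.97e-05). Unc5c held its level through part 4, with log2 means of 6.01 ± 0.54 in part 1 and 6.15 ± 0.34 in part 4, and then dropped to 5.24 ± 0.15, 5.17 ± 0.12 and 4.75 ± 0.21 in parts 5 to 7 (SD, n = 3), with a slope of -0.24 ± 0.04 (adjusted p = 0.000253). Unc5d fell by 0.11 ± 0.03 per part (adjusted p = 0.0203) at signals of 1.34 to 23.3. All its arrays in parts 3 to 6 were below 13.3, and its mean was lowest in part 5. Part 7 against part 1 was not called for Unc5d in limma (adjusted p = 0.0670). Neo1, which encodes neogenin, had a slope of 0.02 ± 0.02 (adjusted p = 0.523), with signals between 516 and 937 in every array. Its 4 other probe sets had slopes of 0.032 to 0.058, and with the mean of probe sets it was called as rising (0.043, adjusted p = 0.0356). Dcc had signals of 18.8 to 49.4 in the 7 arrays of replicate number 3 and 0.316 to 11.8 in the other 14, and its slope was 0.02 ± 0.07 (adjusted p = 0.883).

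Nrp1, the neuropilin gene whose protein takes part in class 3 semaphorin and vascular growth factor signalling, rose by 0.35 ± 0.08 (SE) per part (adjusted p = 0.00241). Its signals were 40.0, 34.2 and 118 in part 1, 90.7, 8.58 and 273 in part 2, 191, 228 and 231 in part 3, 269, 287 and 298 in part 6, and 321, 164 and 525 in part 7. Parts 1 and 2 varied widely between arrays and replicate number 3 was the highest in all 7 parts. The call was lost without replicate number 1 (adjusted p = 0.0636), and the F test over parts did not call Nrp1 (adjusted p = 0.0599). Both fits leave the offset of replicate number 3 in the residual spread. Nrp2 dipped in the middle, with log2 means of 6.68 ± 0.10 in part 1, 5.81 ± 0.52 in part 4 and 7.59 ± 0.32 in part 7 (SD, n = 3), and passed the F test over parts (adjusted p = 0.00564) but not the slope (adjusted p = 0.119). Plxna2 had its highest level in part 2, 8.47 ± 0.26, and its lowest in part 6, 7.31 ± 0.11 (F test, adjusted p = 0.00213). Its slope of -0.14 ± 0.05 had an adjusted p of 0.0368, which was 0.0904 without replicate number 3 and 0.253 without number 1. That call was also lost without any of 9 single arrays, with no filter (adjusted p = 0.0530), with median centring (0.05002) and with the mean of probe sets (0.0524). Plxnb1, the receptor gene of Sema4d, had a slope of -0.02 ± 0.02 (adjusted p = 0.528), Plxna1 one of -0.0019 ± 0.018 (adjusted p = 0.961) and Plxnd1 one of -0.18 ± 0.08 (adjusted p = 0.122). Plxnd1 was called without the replicate 2 array of part 1 (adjusted p = 0.0477) or of part 2 (0.0483), and the slope of Nrp2 without the replicate 3 array of part 4 (0.0485).

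Cxcr4, the signalling receptor gene of Cxcl12, fell with part number by the slope, but the F test over parts did not call it (adjusted p = 0.103). Cxcr4 was not called between parts 7 and 1 in limma either (adjusted p = 0.280), and had its highest mean in part 2. Its signals were 779, 467 and 338 in part 1, 863, 962 and 481 in part 2, 771, 825 and 405 in part 3, 312, 445 and 165 in part 4, 649, 368 and 222 in part 5, 377, 334 and 212 in part 6, and 361, 370.4 and 189 in part 7. Replicate number 3 was the lowest array in all 7 parts, and part 1 overlapped with parts 3 and 5 in the other arrays too. The reported fits leave this offset of number 3 in the residual spread. A missing F test call here therefore does not show that the parts were equal. The slope was -0.19 ± 0.06 (SE; adjusted p = 0.0243), and the call was lost without replicate number 1 (adjusted p = 0.113) or 2 (adjusted p = 0.0994), without the replicate 1 array of part 1 (adjusted p = 0.0584) or without the replicate 3 array of part 7 (adjusted p = 0.0606). Ackr3 peaked in part 5, at 234, 255 and 190, against 36.6, 47.4 and 46.9 in part 1 and 69.7, 74.8 and 60.0 in part 4. Part 7 was split, with 28.6, 218 and 21.9. The F test over parts called Ackr3 (adjusted p = 0.0111), the slope did not (0.23 ± 0.09, adjusted p = 0.0771). The slope was called without replicate number 3 (0.35, adjusted p = 0.0282) or without the replicate 1 (adjusted p = 0.0210) or replicate 3 (adjusted p = 0.0128) array of part 7.

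Of the slit receptor genes, Robo4, best known from endothelium, fell. Robo4 had signals of 33.5, 60.5 and 41.3 in part 1 and of 10.1, 8.07 and 16.1 in part 7, which did not overlap, and a slope of -0.18 ± 0.02 (SE; adjusted p = 2.19e-06). Robo1 had a slope of -0.07 ± 0.03 (adjusted p = 0.204) at signals of 82.6 to 269.996. Robo2 reached no more than 32.5 (slope -0.08 ± 0.05, adjusted p = 0.269). Between part 7 and part 1, 2 receptors were higher, Nrp1 and Nrp2, and 3 were lower, Unc5b, Unc5c and Robo4, while 6.1% and 7.29% of all genes were called in these directions. Without the replicate 1 or the replicate 2 array of part 1, 0 were called higher and 3 lower, without the replicate 1 array of part 7, 0 and 4, and without replicate number 1, 0 and 2. Of all genes 276 were called higher and 425 lower without number 1, in place of 740 and 885.

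**Figure D4:**
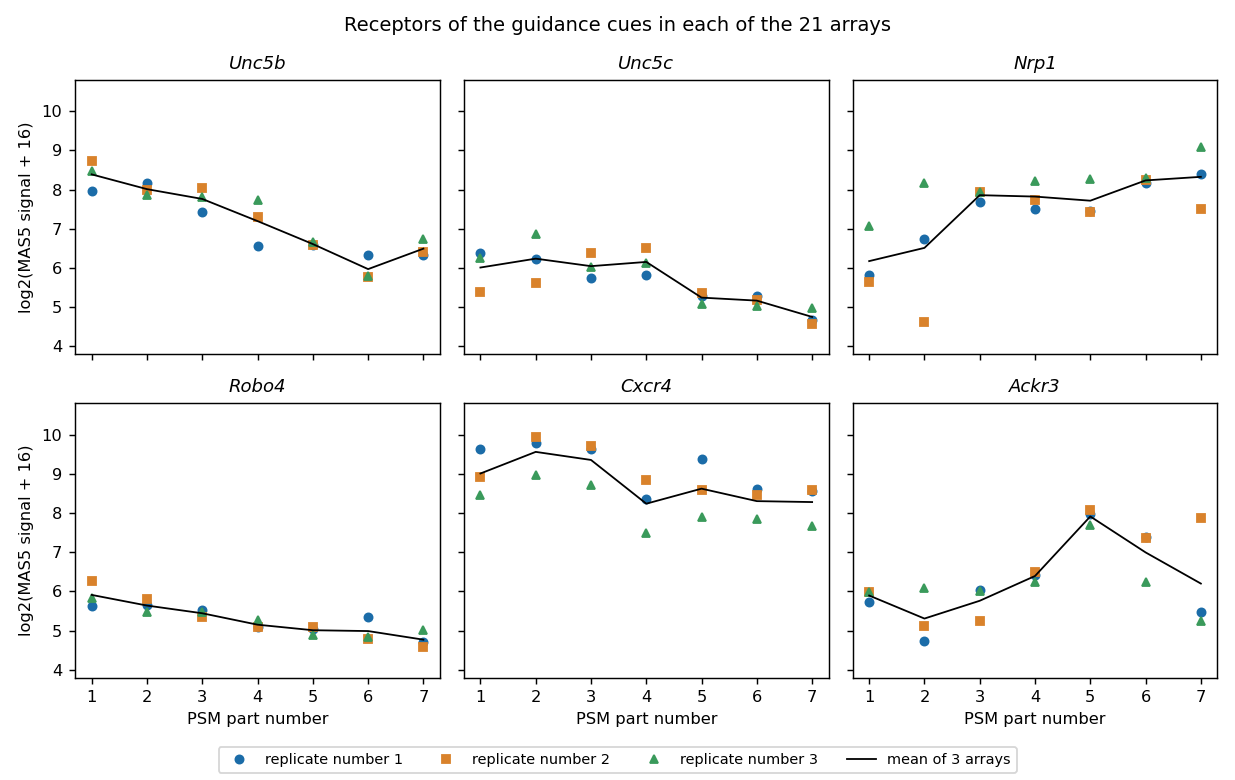
Log2(MAS5 signal + 16) of 6 receptor genes for every array, plotted over PSM parts 1 to 7. Symbols stand for the 3 replicate numbers and lines for the mean of each part. Unc5b, Unc5c and Robo4 are lowest in parts 6 and 7, Nrp1 is highest there, Cxcr4 is higher in parts 1 to 3 than in parts 6 and 7 with replicate number 3 lowest in every part, and Ackr3 peaks in part 5.

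The other netrin, slit and semaphorin genes mostly did not pass. The list read here leaves out the 6 members, which were chosen by their signals over the parts. That choice lowers the share of called genes among the rest, so the share does not describe guidance cues as a family. Of 27 further cue genes 22 passed the limit for a usable signal, and by the slope 1 rose and 0 fell, 4.55% against 19.2% of all genes. With an adjusted p under 0.05 from limma, the 1 gene was Rgmb, whose membrane-anchored product binds neogenin and bone morphogenetic proteins. It rose from 81.3, 73.9 and 51.3 in part 1 to 374, 315 and 273 in part 7, with a slope of 0.32 ± 0.04 (SE; adjusted p = 4.46e-07). Slit2, the third slit gene, had signals of 145, 320 and 285 in part 1 and 95.9, 116 and 132 in part 7, and a slope of -0.09 ± 0.04 (adjusted p = 0.0893). Between part 7 and part 1, Rgmb, Draxin and Sema3f were higher and Slit2 and Sema4g lower (adjusted p = 5.81e-05, 0.00142, 0.00803, 0.0131 and 0.0294). No gene of this list was called lower without replicate number 2, the replicate 2 or 3 array of part 1, or the replicate 1 array of part 7. Of all genes 378 were called lower without number 2, in place of 885. The called slopes became 2 without replicate number 2, the replicate 2 array of part 1 or the replicate 3 array of part 5.

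The F test over parts, read for these lists after the data were seen, called 5 of the 22 cue genes, 7 of the 22 receptors and 6 of the 19 transducers, against 13.4% of all genes. Without replicate number 1 these counts were 1, 3 and 2, and without number 2 they were 3, 3 and 2. Over all 12141 genes the F test called 1627, but 608 without number 1 and 646 without number 2. Besides Rgmb the cue genes were Draxin, Sema4g, Sema6d and Ntng2, each named after its values were seen. Draxin, whose secreted product binds netrin and Dcc, had signals of 27.2, 19.9 and 34.0 in part 1, 182, 134 and 183 in part 3 and 89.2, 88.3 and 160.3 in part 7. Sema4g was highest in part 4, at 7.76 ± 0.25, and lowest in part 7, at 5.83 ± 0.48 (adjusted p = 5.23e-05). Sema6d was highest in part 2, at 8.67 ± 0.35, and Ntng2 had signals of at most 28.2 (SD, n = 3 throughout).

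Of 21 intracellular transducers 20 were on the array and 19 tested, and by the slope 1 rose and 3 fell, 21.1%, close to the 19.2% of all genes. Crmp1, a collapsin response mediator gene of semaphorin signalling, fell by 0.27 ± 0.05 (SE) per part (limma, adjusted p = 0.000284), from 156, 262 and 251 in part 1 to 33.3 to 58.2 in part 6, with 58.9 to 87.1 in part 7. Its relative Dpysl3 had a hump with log2 means of 7.78 ± 0.15, 8.32 ± 0.04 and 7.39 ± 0.12 in parts 1, 3 and 7 (SD, n = 3) and a slope of -0.12 ± 0.03 (adjusted p = 0.0102), which was not called with the mean of probe sets (-0.077, adjusted p = 0.148). Ablim1, an actin-binding gene, rose by 0.21 ± 0.05 (adjusted p = 0.00193). Mical1, an oxidoreductase gene that acts downstream of plexins, had a slope of -0.11 ± 0.04 (adjusted p = 0.0407), a call that 11 of the 21 single arrays and each of the 3 replicate numbers could remove when left out. Without replicate number 1, 1 transducer was called by the slope, and the calls of Ablim1 (adjusted p = 0.0545) and Dpysl3 (adjusted p = 0.153) were lost. That fit called 1375 of all genes, in place of 2330.

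**Figure D5:**
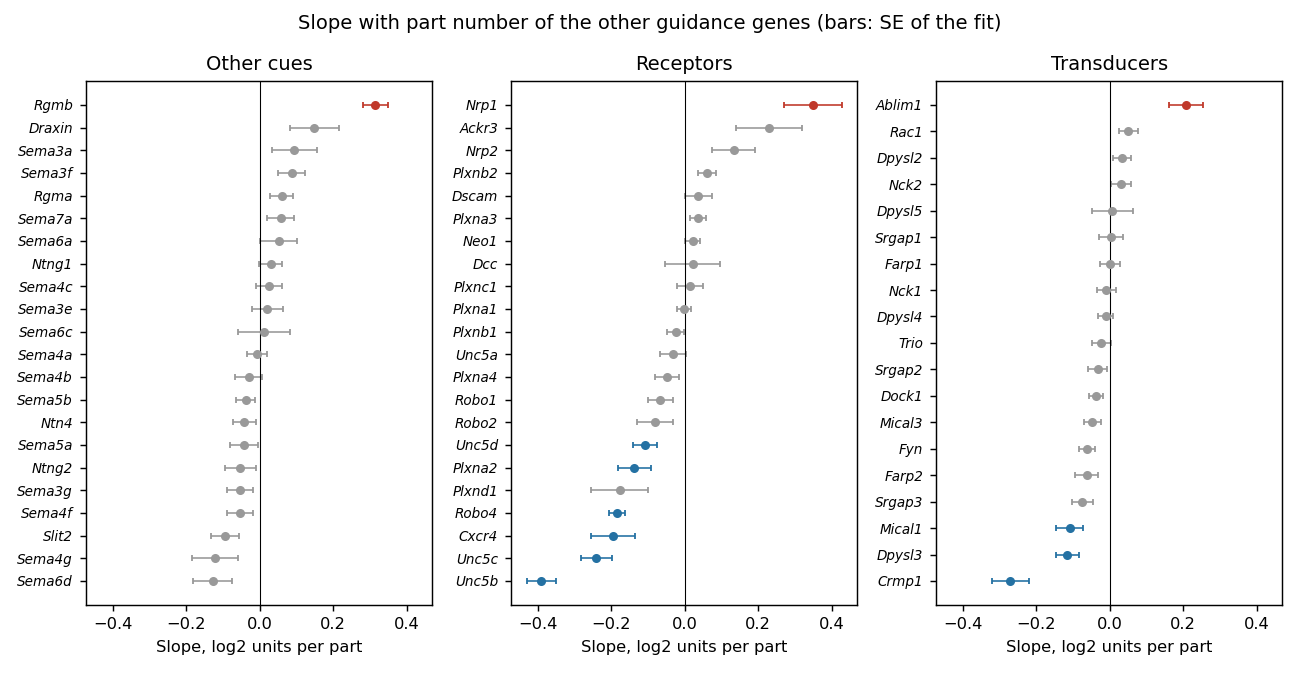
Slope with part number, in log2(MAS5 signal + 16) units per part with the SE of the fit, of the tested genes of 3 lists, red where the gene rose, blue where it fell and grey where the adjusted p was not under 0.05. Among the receptors 1 rose and 6 fell, with Unc5b at -0.39 and Nrp1 at 0.35 at the ends, while 1 of the further cues, Rgmb, rose.

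Markers of other cell types were read beside these results, as summed signal per array. Of 8 floor plate and notochord markers 6 were on the array, 2 were tested and neither Shh nor Foxa1 passed. Their sum stayed between 42.1 and 82.2 in all 21 arrays, Foxj1 and Nog were under 13.3 in every array, and Shh itself lay between 10.7 and 46.6. Ntn1 went from at most 12.3 in part 1 to at least 462 in part 7. The part of floor plate or notochord cells in the Ntn1 levels was not tested. Of 11 neural tube markers 7 were tested and 2, Ncam1 and Olig2, rose. Their sum was 607 to 714 in part 1 and 1209 to 1314 in part 7, and Neurog2 was under 13.3 in every array. Most of this sum was Ncam1, with a log2 mean of 9.49 over all arrays, against 4.43 to 6.03 for the other tested markers. Between parts 7 and 1 limma called Ncam1 (1.07 higher, adjusted p = 5.56e-06). It did not call Olig2 (0.22, adjusted p = 0.521), Irx3 (1.45, adjusted p = 0.107) or Sox2 (-0.82, adjusted p = 0.166). What part the shift of the sum had in the results was not tested. For endothelium, 1 of the 9 tested markers of 10, Egfl7, fell. Its sum was 87.5 to 677 in part 1, 89.8 to 1335 in part 2 and 114 to 371 in part 7, and in part 2 the order of the 3 arrays, 682, 89.8 and 1335, was that of Nrp1. Its part in the slope of Nrp1 was not tested. Of 6 tested blood markers 4 fell and 0 rose. Their sum was far above the sums given here, at 10740 to 18246 in part 1 and 6546 to 12354 in part 7. The part of blood cells in the results was not tested. Of 6 gut endoderm markers 1 fell, and of 4 each of neural crest and surface ectoderm 0 and 1 fell. Of 6 markers of lateral and intermediate mesoderm 1, Wt1, rose.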

How the data were processed

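Total RNA of PSM pieces was extracted with Trizol and labelled after 2 rounds of amplification, per the labels' protocols. The deposited values are linear signal intensities of probe sets. MAS5 made them, per the submitters' processing notes, and neither its version nor a scaling target is given in the sources used here. Array means were nearly equal. All 21 arrays were grouped by title.

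Of 45101 probe sets, 34945 had 1 gene symbol, and the one with the highest mean log2 signal stood for each of 18193 genes. Values were taken as log2(value + 16), which understates changes of low genes. The 12141 genes at or above the table median, 13.3, in at least 3 arrays were tested with limma 3.58.1 in R 4.3.3 (mean-variance trend, no covariate, Benjamini-Hochberg over all genes, threshold 0.05): the slope on part number, part 7 against part 1, and a moderated F test over parts, the last 2 with 14 residual degrees of freedom. All 6 members passed this limit, with 17 to 21 arrays at or above it. Fits were tested on simulated data in which arrays varied independently. The real arrays share variation by replicate number, which that simulation did not cover. An SD is over 3 arrays, an SE comes from limma, and precision is limited by having 3 arrays a part.

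Members and lists were chosen with earlier results of these data known. Named genes were the members, up to 6 called genes per list by slope, 15 preset receptors and cues, genes behind counts of 5 or fewer, and the 3 most alike in profile to each member. Alternatives are given in the closing section.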

Additional observations from a re-analysis of the deposited data

How the results depend on the processing

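The counts were recomputed with other pseudocounts, filters, normalizations, probe set rules and blocks, and with each replicate number and each of the 21 arrays left out; 362 of 408 recomputed counts stayed within 1.5 times. With a replicate block the F test called 3026 genes (fixed) or 2717 (random) in place of 1627, and part 7 against part 1 called 2850 or 2636 in place of 1625. With this block the further cues had 2 called slopes (also 2 with the mean of probe sets, in place of 1) and 9 F test calls in place of 5, and the receptors with the fixed block had 8 calls of part 7 against part 1 in place of 5 and 11 F test calls in place of 7. Slit2 and Plxnd1 gained a called slope with either block (adjusted p = 0.0416 and 0.0258 with the fixed one). The replicate numbers were not used as pairing in the reported fits, because not all same-numbered arrays met a set criterion. Of 63 correlations of deviations between same-numbered arrays 55 were over 0.1, the lowest being 0.034 and the median 0.30. Of 126 correlations between arrays of other numbers 29 were over 0.1, with a median of -0.23. In all, 18 of 21 arrays correlated best with their own number. Arrays of 1 number thus shared variation that the reported p-values leave in the residual spread. With the filter at the 75th percentile, 13 receptors were left, of which 4 had called slopes, 3 differed between parts 7 and 1 and 4 passed the F test.

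Leaving out replicate numbers or single arrays gave 1375 to 2323 called slopes, 608 to 1721 F test calls and 701 to 1706 calls of part 7 against part 1 among all genes. For the further cues these ranges were 1 to 2, 1 to 7 and 2 to 6, for receptors 4 to 8, 3 to 9 and 2 to 5, and for transducers 1 to 5, 2 to 7 and 1 to 3, in the same order. The 6 members were chosen by these same signals, so refits of them are no independent check. Their slopes kept their sign in every fit of the probe set used. Pseudocounts of 1 and 64 moved that of Slit1 to 0.41 and 0.12, of Sema3c to 0.42 and 0.18, of Ntn1 to 1.09 and 0.59 and of Sema4d to -0.17 and -0.087, and the mean of all probe sets gave 0.43 for Ntn1, 0.51 for Cxcl12 and -0.04 for Sema4d. With a pseudocount of 1 the slope of Ntn1 was above that of Cxcl12 (0.99), the reverse of the reported order. The sign turned in 2 probe sets of Sema4d (0.0021 and 0.012), in Dcc with a pseudocount of 1 (-0.030), and in Plxna1 with quantile normalization or median centring (0.0083 and 0.0064). With arrays left out Dcc ran from -0.031 to 0.061, Plxna1 from -0.018 to 0.015 and Plxnb1 from -0.048 to 0.0056, none of them called. The cause of these shifts was not tested.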

Other observations

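The split of Dcc by replicate number was seen with 2 of its 3 probe sets. With the probe set used the signals of replicate number 3 were 18.8 to 49.4 over the 7 parts, against 0.335 to 11.8 in number 1 and 0.316 to 1.42 in number 2. With another they were 13.3 to 32.1, against 0.156 to 4.02 and 0.237 to 4.69. The third had medians of 12.8, 7.15 and 4.53 in numbers 1, 2 and 3. Within a part, arrays of numbers 1 and 2 correlated over 12141 genes with a median r of 0.982, arrays of numbers 1 and 3 with 0.973, and arrays of numbers 2 and 3 with 0.974.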
